A study of Mus musculus with 8 samples.

Results

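Fc receptors and the chains they signal through were followed here across mixed cultures of mouse spleen cells and colon cancer cells. The set holds 9 genes, chosen by name, of the 52636 gene IDs in the files. They are the IgG receptors Fcgr1, Fcgr2b, Fcgr3 and Fcgr4, the adaptor chains Fcer1g and Tyrobp, the kinase Syk, the intracellular IgG receptor Fcgrt and the IgE receptor Fcer2a. All 9 were found, each on 1 gene ID, and 7 reached the level needed for testing, a TPM (a transcript abundance scaled to transcript length and to the library) of at least 1 in at least 4 libraries. Syk and Fcer2a did not. Because a gene such as Fcgr1 reached that level only through the group where it was high, counts over the 7 tested genes describe them and do not speak for all 9.

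The trogocytic group was a culture of C57BL/6 splenocytes with colon cancer cells sorted as trogocytic, and the non-trogocytic group, the control, one with colon cancer cells sorted as non-trogocytic. Trogocytosis is the transfer of membrane and its proteins from one cell to another, and the sort used tdTomato, the tumour reporter, and CD4, a protein of helper T cells. In both groups tdTomato organoids injected into the spleen had given rise to the cancer cells, which were recovered as liver metastases, and the splenocytes were from Actin-GFP reporter mice. Each cancer cell was kept with 50 splenocytes for 5 days. There were 4 libraries of polyadenylated RNA per group. The labels do not tie the replicates to separate animals or cultures, so every p-value measures only how far these libraries vary, and that variation may be technical. RNA came from the whole mixture, so a lower level can mean fewer cells of a type or less RNA per cell, and these cannot be told apart.

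Aligned bases per library came to 1.39 to 1.84 Gb, and correlations between libraries ran from 0.853 to 0.912 over log2 values. Both partners of the culture were detected. Ptprc, the pan-leukocyte gene for CD45, ranged from 98.4 to 253 TPM in trogocytic and from 55.8 to 345 TPM in non-trogocytic libraries, and replicate 1 was the highest of each group. The summed level of 10 epithelial genes, all of them tested, ranged from 5330 to 7002 TPM in trogocytic and from 3309 to 9010 TPM in non-trogocytic libraries.

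Fc receptors bind the constant part of antibodies. The activating IgG receptors Fcgr1, Fcgr3 and Fcgr4 have no signalling motif of their own in the mouse and depend on the common gamma chain, encoded by Fcer1g, whose ITAM (immunoreceptor tyrosine-based activation motif) is phosphorylated by Src-family kinases and then recruits the kinase Syk. Fcgr2b carries an inhibitory motif instead and recruits the phosphatase SHIP1, the product of Inpp5d. Tyrobp encodes DAP12, a second ITAM adaptor, which serves receptors such as Trem2 on macrophages. In the spleen these genes are known from macrophages, monocytes, neutrophils, natural killer cells and, for Fcgr2b and Fcer2a, B cells.

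The 250 bases before the annotated start of the activating receptor genes are shown because all 3 had lower mean levels in the trogocytic libraries, as described below. Fcgr3 has a second window, shifted by a few bases, with the same match. Both Fcgr3 windows lie inside the Fcgr3 span given below, so the start they precede is not the 5′ end of that span. Sequences are from RefSeq on GRCm38.p6, 5′ to 3′ on the gene's strand. Capitals mark matches to GAGGAA on either strand (TTCCTC on the other), the core letters of sites known to be bound by the myeloid factor PU.1.
Fcgr1, chr3:96293970-96294219, minus strand: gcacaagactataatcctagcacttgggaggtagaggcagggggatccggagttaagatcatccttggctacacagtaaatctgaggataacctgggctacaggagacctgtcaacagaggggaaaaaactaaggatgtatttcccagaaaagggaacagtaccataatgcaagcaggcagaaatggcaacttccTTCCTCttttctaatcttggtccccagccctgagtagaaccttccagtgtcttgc
Fcgr3, chr1:171059395-171059644, minus strand: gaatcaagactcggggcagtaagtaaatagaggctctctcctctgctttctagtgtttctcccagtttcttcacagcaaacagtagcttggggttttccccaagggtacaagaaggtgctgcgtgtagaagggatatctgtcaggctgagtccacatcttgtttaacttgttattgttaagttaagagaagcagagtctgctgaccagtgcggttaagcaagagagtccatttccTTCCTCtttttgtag
Fcgr4, chr1:171018676-171018925, plus strand: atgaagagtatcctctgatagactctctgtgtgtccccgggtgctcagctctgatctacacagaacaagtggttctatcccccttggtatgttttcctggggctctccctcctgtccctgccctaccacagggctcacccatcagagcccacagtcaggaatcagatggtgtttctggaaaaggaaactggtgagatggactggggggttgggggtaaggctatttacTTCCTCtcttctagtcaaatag

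Of the 9 genes, 8 had a promoter entry, with 12 windows in all. GAGGAA was found in 5 of these windows, of Fcgr1, Fcgr3, Fcgr4 and Syk, and in 23.3% of all 32851 mouse windows of the same length. The windows of Fcer1g, Fcgr2b and Fcgrt, which also had lower mean levels, held no match, nor did those of Fcer2a. In each of the 3 printed promoters the match begins within 55 bases of the start, at 55, 15 and 22 bases before it for Fcgr1, Fcgr3 and Fcgr4. TATAAA, searched on both strands too, was found in 1 window of the set, of Fcer2a, and in 12.4% of all windows. These are letter matches and no measure of binding.

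The adaptor chains and Fcgr3 were abundant, whereas the kinase recruited by the adaptors was low. Over all 8 libraries, Fcer1g averaged 761 ± 555 TPM (SD, n = 8), Fcgr3 390.1 ± 270.2 TPM and Tyrobp 261 ± 158 TPM. Fcgr4 followed at 38.99 ± 28.2 TPM, Fcgr2b at 20.7 ± 14.7 TPM, Fcgrt at 6.72 ± 6.02 TPM, Fcgr1 at 4.04 ± 4.99 TPM and Syk at 1.41 ± 1.75 TPM. Fcer2a had a level above 0 in 1 library. TPM is scaled to transcript length, but setting these levels against each other also assumes even coverage along transcripts and correct assignment of reads. Neither was tested here. Fcer1g stood above Fcgr3 in 8 of 8 libraries and Tyrobp above Fcgr4 in 8 of 8. Fcgr3 stood above Tyrobp in 7, Fcgr4 above Fcgr2b in 7 and Fcgr2b above Fcgrt in 6. Among the low genes the order was not stable: Fcgrt stood above Fcgr1, and Fcgr1 above Syk, in 5 of 8 libraries each, and these neighbours differed by less than their spread (0.67 ± 1.45 and 0.77 ± 1.33 on the log2 scale).

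**Figure D1:**
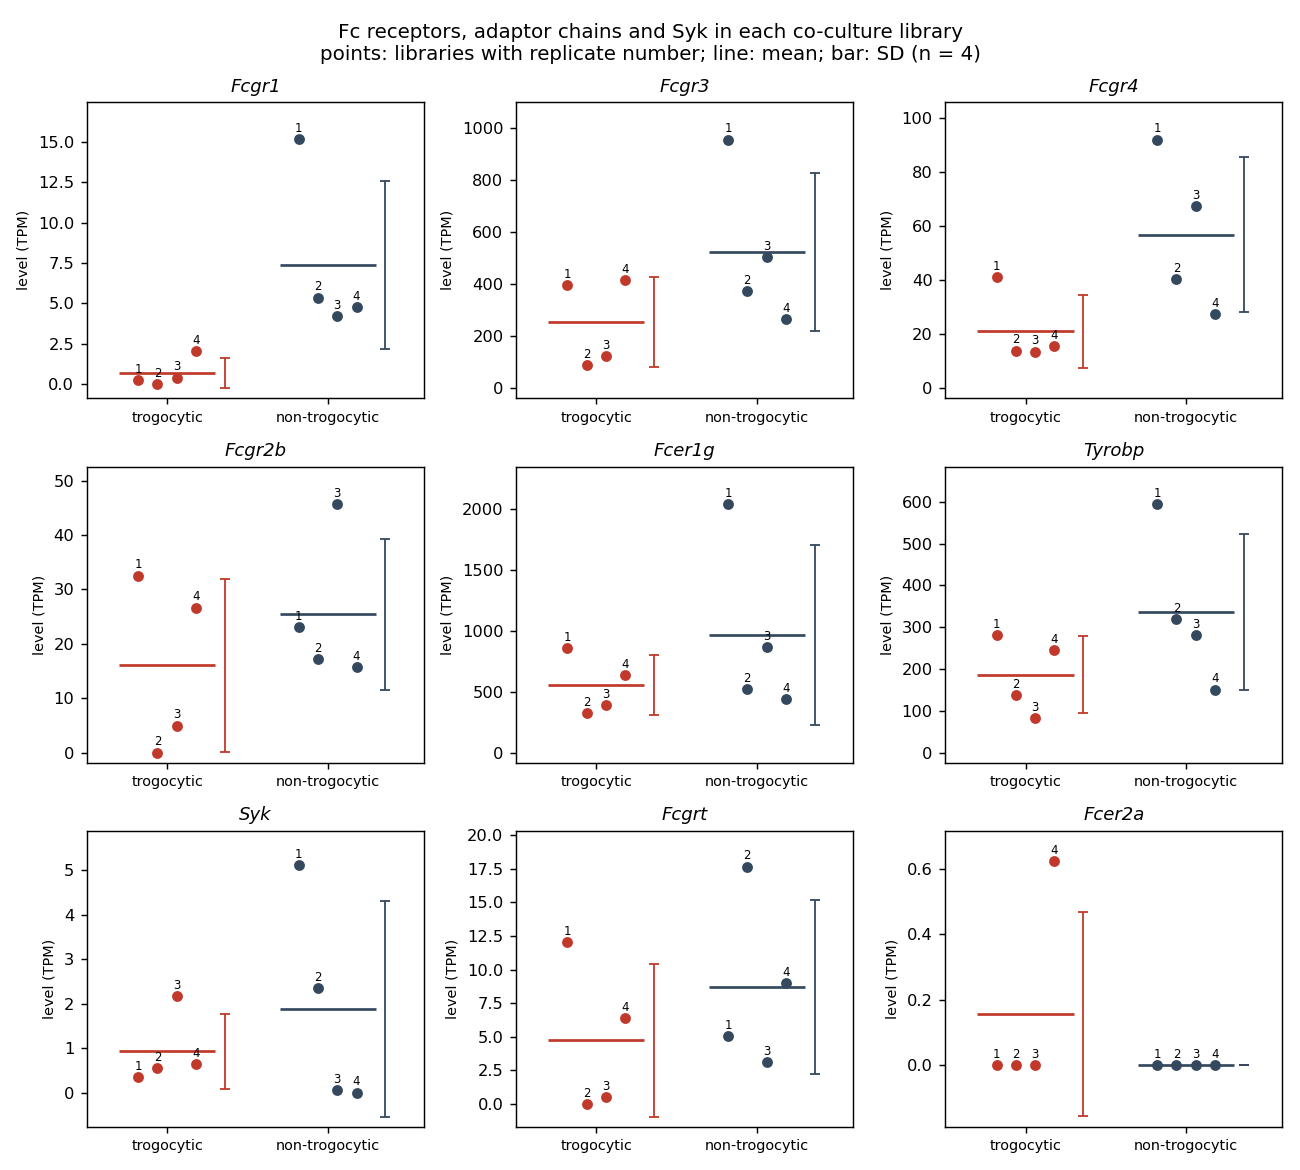
Level of each of the 9 genes in TPM (vertical axis, a separate scale per gene) in the 4 trogocytic libraries (red, left) and the 4 non-trogocytic libraries (dark blue, right), with replicate numbers, group means (lines) and SD (bars). Fcgr1 is the gene whose groups do not overlap, with at most 2.06 TPM in trogocytic and at least 4.24 TPM in non-trogocytic libraries.

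The comparison asked whether these genes differed with the kind of cancer cell in the culture. All 7 tested genes stood lower on average in the trogocytic group, by 0.64 to 2.29 on the log2(TPM + 1) scale, but none passed the test. The added 1 makes fold changes of low genes too small. The test was limma on all 11433 tested genes with Benjamini-Hochberg adjustment and a threshold of 0.05, which called 0.0525% of them in either direction and 0.035% as lower. In this fit 2 of the 7 genes, Fcgr1 and Fcgr4, had an unadjusted p below 0.05 in the lower direction, as had 2.52% of all genes tested (4.59% in either direction). The median fold change of the 7 was −1.25, beside 0.01 over all genes, of which 49.3% lay below 0 and 5.42% below −1, where 5 of the 7 lay.

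Fcgr1 encodes the high-affinity IgG receptor of macrophages and monocytes (ENSMUSG00000015947.10, GRCm38 chromosome 3, 96282909 to 96293969, minus strand). It stood at 0.260, 0, 0.402 and 2.06 TPM in trogocytic replicates 1 to 4, against 15.2, 5.37, 4.24 and 4.78 TPM in non-trogocytic replicates 1 to 4. Every trogocytic library was below every non-trogocytic one, a pattern found in the lower direction in 1.3% of all tested genes, in the higher direction in 1.37% and in either in 2.68%. Means were 0.681 ± 0.936 TPM in trogocytic and 7.39 ± 5.21 TPM in non-trogocytic libraries (SD, n = 4 each). The log2 fold change was −2.29 ± 0.54 (SE), with a 95% interval from −3.49 to −1.10 before any adjustment, and a limma adjusted p of 0.5812. If every read pair aligned over its full length, the level rested on about 1.97, 0, 3.45 and 16.9 read pairs in trogocytic and 166, 49.7, 44.9 and 42.2 in non-trogocytic libraries, so the trogocytic values are at the edge of detection. Fcgr1 has 1 protein-coding transcript, and no 100-base window of it recurs in the other IgG receptor transcripts.

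Fcgr3 and Fcgr4 encode the lower-affinity activating receptors. Fcgr3 (ENSMUSG00000059498.13, chromosome 1, 171051174 to 171064935, minus strand) stood at 396, 88.7, 123 and 415 TPM in trogocytic replicates 1 to 4, against 955, 373.5, 503 and 266 TPM in the non-trogocytic ones. The groups overlap: trogocytic replicates 1 and 4 lie above non-trogocytic replicates 2 and 4. The log2 fold change was −1.18 ± 0.54 (95% interval −2.37 to 0.01; limma adjusted p = 0.9998), and −0.78 without trogocytic replicate 2. Fcgr4 (ENSMUSG00000059089.4, chromosome 1, 171018920 to 171029761, plus strand) stood at 41.2, 13.96, 13.6 and 15.5 TPM in trogocytic libraries, against 92.0, 40.5, 67.5 and 27.6 TPM in non-trogocytic ones. Trogocytic replicate 1 is the one that reaches the non-trogocytic range, and the other 3 lie close together below it. The log2 fold change was −1.41 ± 0.46 (95% interval −2.43 to −0.39; limma adjusted p = 0.9388).

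Fcgr2b, the inhibitory IgG receptor, varied too much for a comparison (ENSMUSG00000026656.15, chromosome 1, 170958617 to 170976547, minus strand). It stood at 32.5, 0, 4.94 and 26.6 TPM in trogocytic libraries, against 23.1, 17.2, 45.7 and 15.8 TPM in non-trogocytic ones. Trogocytic replicates 2 and 3 are the lowest of all 8 libraries, while replicates 1 and 4 lie inside the non-trogocytic range. The log2 fold change of −1.49 ± 0.97 (limma adjusted p = 0.9998) was −0.46 without trogocytic replicate 2. The antisense gene that overlaps it, Gm38204, was listed at 0 in all 8 libraries.

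Fcgr2b and Fcgr3 lie close together and are near copies in their antibody-binding part, which bears on how reads were divided between them. Their coding sequences share a longest identical run of 129 bases, at positions 278 to 406 of Fcgr2b and 263 to 391 of Fcgr3, longer than 1 read of 100 bases. It is shown because a read inside it does not by itself name either gene, though its mate may.
Run shared by Fcgr2b and Fcgr3, chromosome 1, coding strand: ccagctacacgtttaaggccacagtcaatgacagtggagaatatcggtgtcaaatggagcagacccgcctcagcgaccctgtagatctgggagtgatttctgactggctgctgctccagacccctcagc
Of the 100-base windows of the Fcgr2b transcript with the longest coding sequence, 44 of 1479, or 2.97%, recur in Fcgr3 transcripts, and of those of Fcgr3 44 of 1248, or 3.53%, recur in Fcgr2b. No window was shared by any other pair of the 4 receptors. These windows were counted over whole transcripts, and they do not all lie inside the printed run. The division of reads inside the shared stretches is uncertain, and it was not tested here.

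Fcgr3 dominated the 4 IgG receptors in every library, and the share of Fcgr1 was the one whose groups did not overlap. Fcgr3 made up 84.3 to 90.4% of their summed TPM in trogocytic and 81.1 to 88.0% in non-trogocytic libraries. The share of Fcgr4 was 3.38 to 13.6% in trogocytic and 8.48 to 10.9% in non-trogocytic libraries, and that of Fcgr2b 0 to 6.92% and 2.13 to 7.37%. The share of Fcgr1 was 0.0554, 0, 0.283 and 0.449% in trogocytic replicates 1 to 4, against 1.40, 1.23, 0.682 and 1.52% in non-trogocytic replicates 1 to 4. A share within a library does not depend on how libraries are scaled.

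**Figure D2:**
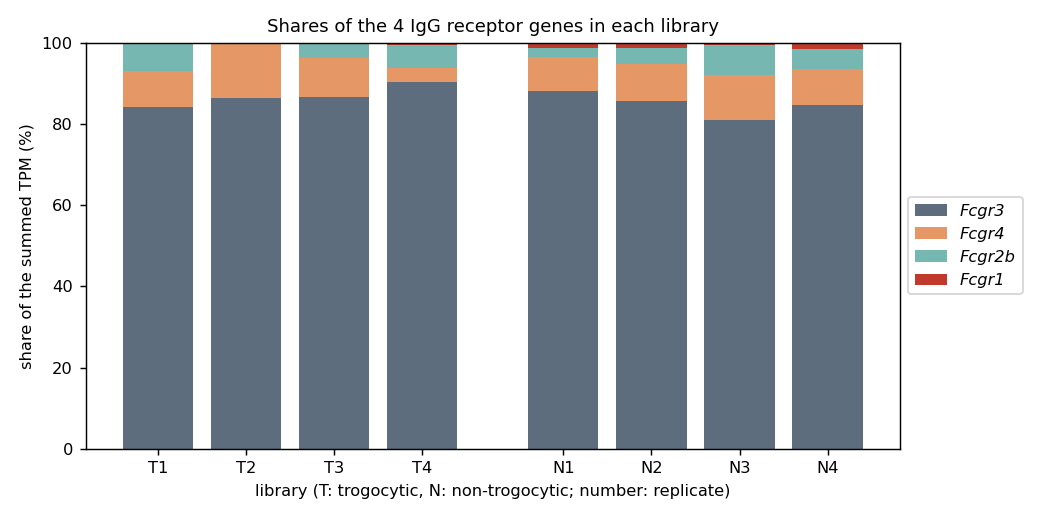
Share of Fcgr3, Fcgr4, Fcgr2b and Fcgr1 in their summed TPM (vertical axis, percent) in each library, trogocytic (T1 to T4) on the left and non-trogocytic (N1 to N4) on the right. Fcgr3 takes over 80% of every bar, and the thin Fcgr1 layer at the top, 0.682 to 1.52% in non-trogocytic libraries, is at most 0.449% in trogocytic ones.

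The adaptor chains had smaller fold changes than the IgG receptors, a difference that was not tested. Fcer1g (ENSMUSG00000058715.11, chromosome 1, 171229572 to 171234365, minus strand) stood at 859.9, 326, 389.8 and 638 TPM in trogocytic libraries, against 2041, 523.9, 868 and 440.6 TPM in non-trogocytic ones. Replicate 1 was the highest of each group, and the log2 fold change of −0.64 ± 0.46 (95% interval −1.66 to 0.38; limma adjusted p = 0.9998) was −0.42 when trogocytic replicate 2 was left out and −0.19 when non-trogocytic replicate 1 was. Tyrobp (ENSMUSG00000030579.10, chromosome 7, 30413760 to 30417585, plus strand) stood at 280.2, 137, 82.5 and 245.5 TPM in trogocytic libraries, against 595, 319, 282 and 151 TPM in non-trogocytic ones. Non-trogocytic replicate 4 is the library that falls inside the trogocytic range, and the log2 fold change was −0.84 ± 0.45 (95% interval −1.84 to 0.17; limma adjusted p = 0.9998), and it was −0.50 when trogocytic replicate 3 was left out and −0.51 when non-trogocytic replicate 1 was. Fcer1g exceeded Tyrobp 2.38- to 4.73-fold in trogocytic and 1.64- to 3.43-fold in non-trogocytic libraries, and it exceeded the sum of the 3 activating receptors 1.48- to 3.18-fold and 1.25- to 1.92-fold.

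Syk, the kinase recruited by both adaptors, did not reach the test (ENSMUSG00000021457.14, chromosome 13, 52583173 to 52648792, plus strand). It stood at 0.345, 0.546, 2.17 and 0.646 TPM in trogocytic libraries, against 5.12, 2.35, 0.0629 and 0 TPM in non-trogocytic ones. The highest and the lowest libraries are both non-trogocytic. Zap70, its relative in T cells, was as low, at 0 to 1.51 TPM in trogocytic and 0 to 3.50 TPM in non-trogocytic libraries.

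Fcgrt encodes the heavy chain of FcRn, which returns IgG from endosomes to the cell surface and so protects it from breakdown (ENSMUSG00000003420.8, chromosome 7, 45092990 to 45103851, minus strand). It stood at 12.1, 0, 0.514 and 6.37 TPM in trogocytic libraries, against 5.03, 17.7, 3.12 and 9.02 TPM in non-trogocytic ones. The groups overlap widely (log2 fold change −1.25 ± 0.85; limma adjusted p = 0.9998), and the fold change was −1.89 when trogocytic replicate 1 was left out and −0.65 when trogocytic replicate 2 was. The antisense gene Gm45669 overlaps it and reached at most 1.32 TPM, and the strand setting of the counting is not given in the sources used here, so reads of the pair may be mixed. Fcer2a, the low-affinity IgE receptor CD23 of B cells (ENSMUSG00000005540.10, chromosome 8, 3681737 to 3694175, minus strand), stood at 0.623 TPM in trogocytic replicate 4 and was listed at 0 in the other 7 libraries. B cell transcripts were present in these libraries: Cd79b, a chain of the B cell receptor, stood at 40.9 to 192 TPM in trogocytic and 14.8 to 155 TPM in non-trogocytic libraries.

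**Figure D3:**
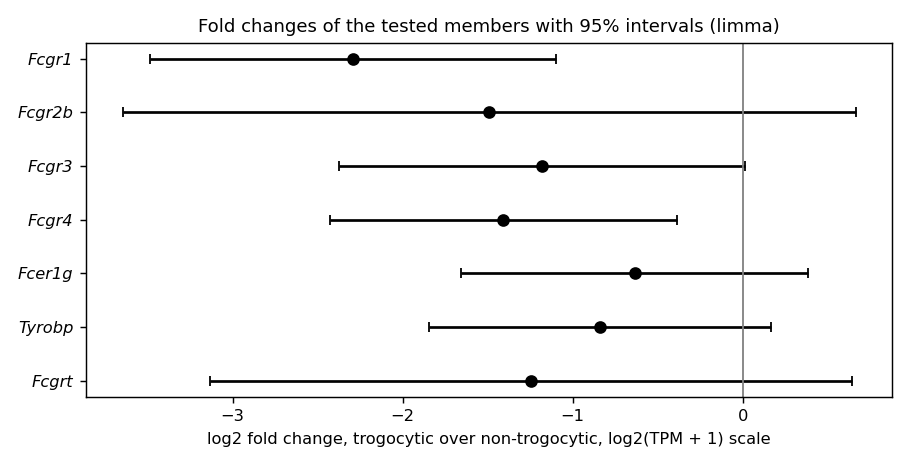
Log2 fold change of the 7 tested genes, trogocytic over non-trogocytic, on the log2(TPM + 1) scale (horizontal axis), with 95% intervals from limma that are not adjusted for the number of genes. All 7 points lie below 0, and the intervals of Fcgr1 (−3.49 to −1.10) and Fcgr4 (−2.43 to −0.39) exclude 0.

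The genes most like the receptors and adaptors across libraries included several of myeloid cells. By Pearson correlation over the 8 libraries, the genes most like Fcgr3 were Cd84 (r = 0.994), Clec7a (0.979), which encodes the beta-glucan receptor Dectin-1, and Ctss (0.968), a lysosomal protease. For Fcer1g they were Tmem50a (0.994), Bcl2a1b (0.985) and Aif1 (0.984), and for Tyrobp Itm2b (0.988), Creg1 (0.981) and Akr1a1 (0.978). Selenop led for Fcgr4 (0.965), Apobec1 for Fcgr2b (0.942), Galc for Fcgrt (0.976) and Gm10244 for Fcgr1 (0.972). The points are the same 8 libraries each time, they share each library's depth and cell mixture, and these genes were picked from 11433 for their likeness, so the values are descriptions. Of the 20 genes of the macrophage and monocyte list, 17 were tested, with 15 below 0, 2 above and none called. Its summed level ranged from 2612 to 8332 TPM in trogocytic and from 5083 to 22560 TPM in non-trogocytic libraries. Of its defining markers, Csf1r, the receptor of the macrophage growth factor, was low throughout, at 0.175 to 0.630 TPM in trogocytic and 0.727 to 4.88 TPM in non-trogocytic libraries. The part that the amount of macrophage RNA has in the receptor levels was not tested.

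Because Ptprc ranged from 55.8 to 345 TPM over the 8 libraries, levels were also set against Ptprc within each library, a choice made after the data had been seen. Relative to Ptprc, 5 of the 7 tested genes were lower in every trogocytic library than in any non-trogocytic one: Fcgr1, Fcgr3, Fcgr4, Fcer1g and Tyrobp. The same pattern was found in 1.28% of the 11432 genes tested other than Ptprc, and the reverse pattern in 0.175%. The 5 ratios have the same denominator, and the genes vary together, so they do not count as 5 separate observations. Per 100 TPM of Ptprc, Fcer1g stood at 340, 332, 268 and 405 TPM in trogocytic replicates 1 to 4, against 592, 871, 584 and 789 TPM in non-trogocytic ones. Fcgr4 stood at 16.3, 14.2, 9.33 and 9.85 TPM in trogocytic libraries, against 26.7, 67.3, 45.4 and 49.4 TPM in non-trogocytic ones. Fcgr3 stood at 84.3 to 263 TPM in trogocytic and 277 to 621 TPM in non-trogocytic libraries, Tyrobp at 56.6 to 156 and 172 to 531 TPM, and Fcgr1 at 0 to 1.31 and 2.85 to 8.92 TPM. The non-trogocytic mean exceeded the trogocytic one 2.11-fold for Fcer1g, 2.51-fold for Tyrobp, 2.88-fold for Fcgr3 and 3.80-fold for Fcgr4. No fold is given for Fcgr1, whose trogocytic values are at the edge of detection.

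Several macrophage genes had the same pattern. Relative to Ptprc, 5 of 17 tested macrophage genes were lower without overlap, Cd68, Lyz2, Mpeg1, Ctss and Aif1, as were 2 of 5 oxidase genes, Cybb and Cyba. The pattern was not confined to these: Ighg3 and Igha of 6 tested antibody heavy chain genes had it too. So did Lyn of 24 signalling genes and Pirb and Cd300a of 13 gene IDs of inhibition. Clec4d of 4 genes of the list around Fcer1g and Cd300c2 of 12 genes of the list around Tyrobp also had it. Of the T cell, B cell, neutrophil and epithelial lists, with 9, 5, 7 and 10 tested genes, 0 genes were lower without overlap. The difference between lists was not tested. Cd68, a lysosomal glycoprotein of macrophages, stood at 275 to 551 TPM per 100 TPM of Ptprc in trogocytic and 591 to 1270 TPM in non-trogocytic libraries. With Ptprc as a covariate in limma, the log2 fold change of Fcer1g was −0.997 ± 0.17 (limma adjusted p = 0.1278), that of Fcgr4 −1.70 ± 0.31 (0.1546), that of Fcgr1 −2.48 ± 0.52 (0.223) and that of Fcgr3 −1.52 ± 0.38 (0.3993). Those of Tyrobp, Fcgr2b and Fcgrt were −1.09, −1.86 and −1.26 (limma adjusted p = 0.5746, 0.7727 and 0.8775), so none of the 7 passed. Over all genes, 819 had an unadjusted p below 0.05 with the covariate and 525 without it. A limma fit to the levels relative to Ptprc themselves, which moved the median of all genes to −0.42, gave each of the 7 an adjusted p of 0.9998, with a log2 fold change of −1.06 ± 0.77 for Fcer1g and −1.84 ± 0.87 for Fcgr4.

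**Figure D4:**
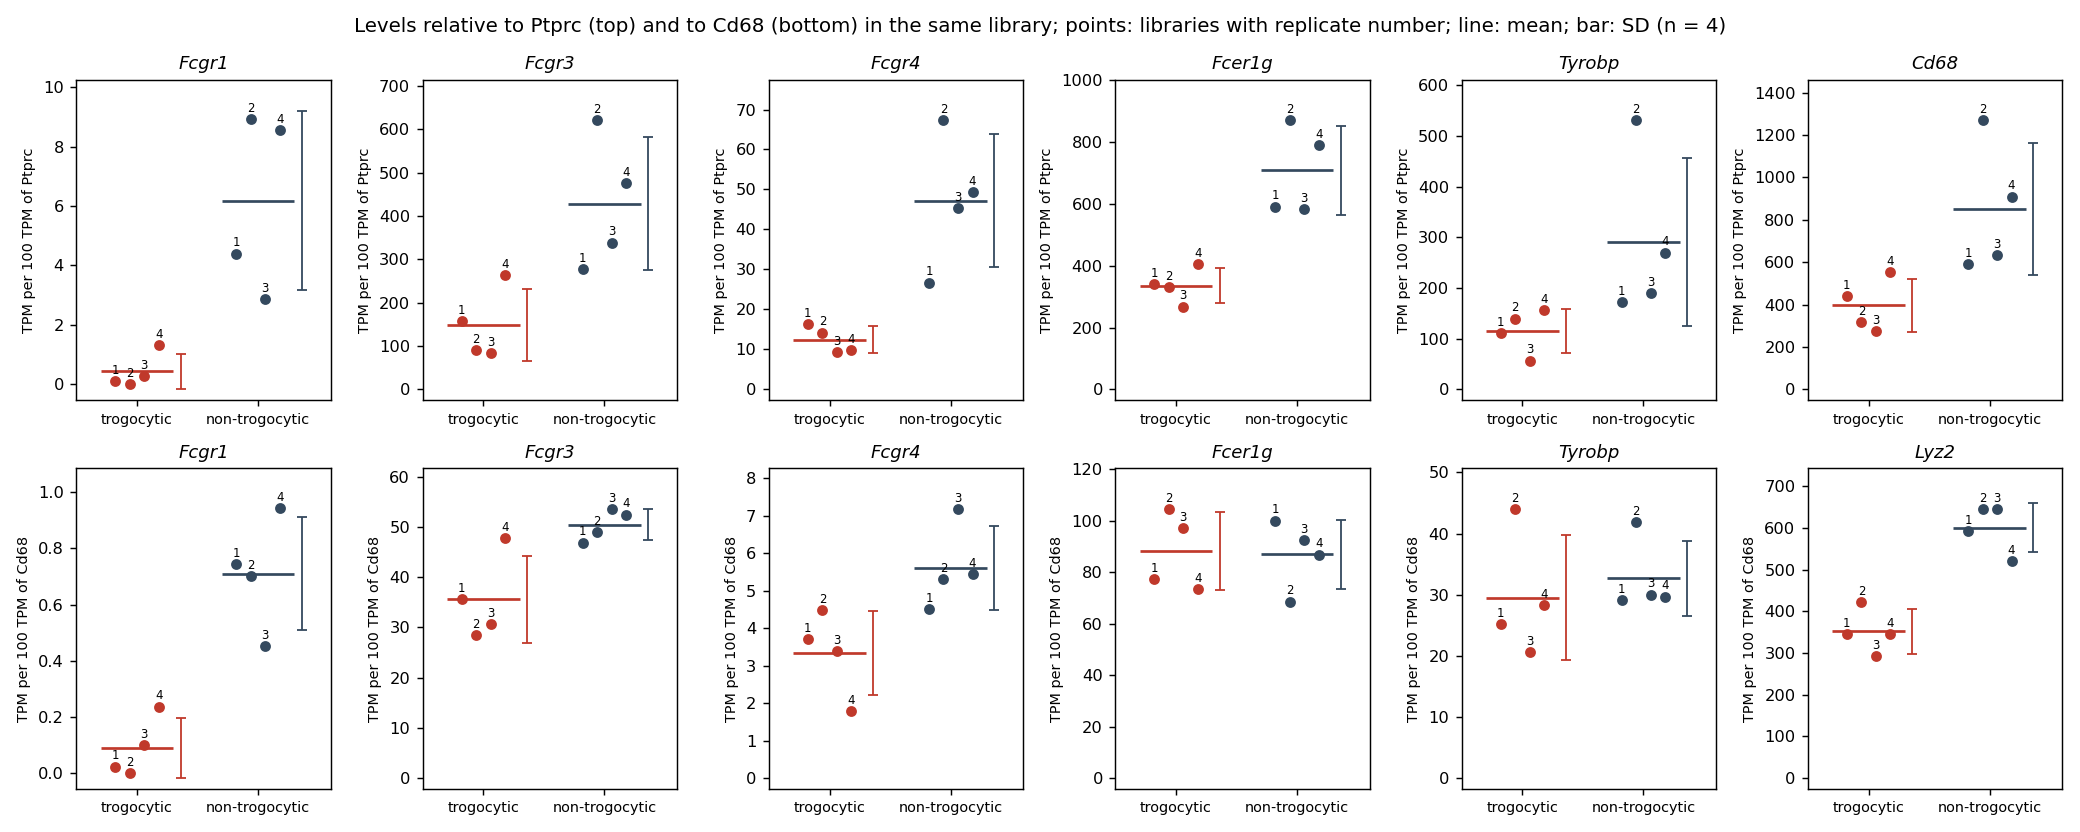
Level of the 5 genes that did not overlap relative to Ptprc, and of Cd68 (top) or Lyz2 (bottom), per 100 TPM of Ptprc (top row) and of Cd68 (bottom row) in the same library, trogocytic (red, left) and non-trogocytic (dark blue, right), with replicate numbers, means (lines) and SD (bars). The top row shows no overlap, since its genes were chosen for that, while Fcgr2b, Fcgrt, Syk and Fcer2a, which overlap, are not drawn; in the bottom row Fcgr3, Fcer1g and Tyrobp overlap while Fcgr1, Fcgr4 and the macrophage lysozyme gene Lyz2 do not.

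Set against Cd68 in place of Ptprc, both adaptors overlapped between the groups and 2 receptors did not. Per 100 TPM of Cd68, Fcer1g stood at 77.4, 104.7, 97.1 and 73.4 TPM in trogocytic libraries, against 100.1, 68.6, 92.5 and 86.9 TPM in non-trogocytic ones, with each group spanning much of the other. Fcgr1 stood at 0.0234, 0, 0.1001 and 0.237 TPM in trogocytic libraries, against 0.744, 0.703, 0.451 and 0.943 TPM in non-trogocytic ones. Fcgr4 stood at 3.71, 4.48, 3.39 and 1.79 TPM in trogocytic libraries, against 4.51, 5.30, 7.19 and 5.44 TPM in non-trogocytic ones, where trogocytic replicate 2 and non-trogocytic replicate 1 nearly meet. In Fcgr3 only trogocytic replicate 4, at 47.7 TPM per 100 TPM of Cd68, reached the non-trogocytic range of 46.9 to 53.6 TPM, and the other 3 stood at 28.4 to 35.6 TPM. Relative to Cd68, Lyz2 and Ctss of 16 tested macrophage genes were also lower without overlap, and 0 were higher. Pirb of 13 gene IDs of inhibition and Ighg3 of 6 antibody heavy chain genes were lower too, while Ighm was higher. Clec7a, named above for its likeness to Fcgr3, was also lower without overlap. How the receptors differ from these genes was not tested. Of all tested genes, 0.28% were lower and 2.58% higher without overlap on this scale. The limma fit to levels relative to Cd68, which moved the median of all genes to 0.66, gave Fcer1g a log2 fold change of 0.02 ± 0.66 (adjusted p = 0.9913) and Fcgr1 one of −1.64 ± 0.85 (adjusted p = 0.7826).

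Genes around the receptors were followed in 8 lists with 103 symbols, of which 73 gene IDs were tested. None passed limma's test, in either direction, and 5 had an unadjusted p below 0.05 (4.59% of all tested genes had one), and no result is read from this count: Ighg3, Cd300ld, Plcg2 and Pirb, which were lower, and Cd3g, which was higher. Among the ligands, the antibody heavy chains, 5 of 6 tested genes had a fold change below 0. Ighg3, the constant region of IgG3, was listed at 0 in all 4 trogocytic libraries and stood at 39.5, 9.43, 8.30 and 6.09 TPM in non-trogocytic replicates 1 to 4 (limma adjusted p = 0.0877). Ighm, of IgM, pointed the other way, at 193, 40.0, 81.2 and 122 TPM in trogocytic libraries against 98.5, 58.7, 71.1 and 3.21 TPM in non-trogocytic ones (limma adjusted p = 0.9998).

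Genes of the lists around the adaptors had the same sign as the adaptors in most cases. All 4 tested genes of the list around Fcer1g had a fold change below 0, with a median of −0.49. They include Clec4a2, an inhibitory receptor, so not all 4 are receptors that use Fcer1g. So had 8 of 12 tested genes of the list around Tyrobp, with a median of −0.59. That list holds receptors grouped around Tyrobp, and whether each of them, Cd300ld among them, uses Tyrobp was not checked. It also holds Hcst, which encodes the related adaptor DAP10 and had a fold change of 0.43. Clec4n, which encodes the fungal receptor Dectin-2 and uses Fcer1g, stood at 754, 256, 210 and 465 TPM in trogocytic libraries, against 1672, 335, 421 and 173 TPM in non-trogocytic ones. Trem2, a lipid receptor that uses Tyrobp, stood at 18.9 to 138 TPM in trogocytic and 16.2 to 226 TPM in non-trogocytic libraries. Cd300ld, which recognises lipids and uses ITAM adaptors, stood at 24.3, 11.3, 1.02 and 0.416 TPM in trogocytic libraries, against 33.1, 17.7, 23.9 and 11.6 TPM in non-trogocytic ones (log2 fold change −1.95 ± 0.86; limma adjusted p = 0.9998). The alpha and beta chains of the high-affinity IgE receptor, Fcer1a and Ms4a2, and the natural killer receptor Ncr1, all partners of Fcer1g, were listed at 0 in all 8 libraries.

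ITAM chains of lymphocytes had the opposite sign. All 6, which belong to the T and B cell antigen receptors, had a fold change above 0, with a median of 0.77. Cd3g, of the T cell receptor complex, stood at 274, 72.9, 66.3 and 125 TPM in trogocytic libraries, against 110, 48.6, 50.1 and 22.1 TPM in non-trogocytic ones (log2 fold change 1.18 ± 0.53; limma adjusted p = 0.9998), and the fold change was 0.76 when trogocytic replicate 1 was left out. The summed level of 10 T cell genes, of which 9 were tested and all 9 lay above 0, ranged from 283 to 1183 TPM in trogocytic and from 78.3 to 755 TPM in non-trogocytic libraries.

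Signalling genes downstream of the receptors showed no common direction. Of 24 tested, 14 had a fold change below 0 and 10 above, with a median of −0.11. Lyn, a Src-family kinase that phosphorylates ITAMs, stood at 6.96 to 13.9 TPM in trogocytic and 6.48 to 56.0 TPM in non-trogocytic libraries. Plcg2, a phospholipase activated through Syk, stood at 2.21, 0, 0 and 0.279 TPM in trogocytic libraries, against 1.59, 1.96, 2.00 and 4.01 TPM in non-trogocytic ones (log2 fold change −1.20 ± 0.48; limma adjusted p = 0.9998). Of 13 tested gene IDs of inhibition, 9 lay below 0. Pirb, an inhibitory receptor of myeloid and B cells, stood at 0.340 to 1.59 TPM in trogocytic and 0.900 to 6.77 TPM in non-trogocytic libraries (log2 fold change −1.15 ± 0.52; limma adjusted p = 0.9998). Inpp5d, the phosphatase recruited by Fcgr2b, stood at 0.156 to 6.85 TPM in trogocytic and 0.543 to 3.54 TPM in non-trogocytic libraries. Of the 5 phagocyte oxidase genes, whose product makes superoxide after Fc receptor engagement, 4 lay below 0, among them Cyba at 747 to 1581 TPM in trogocytic and 789 to 3115 TPM in non-trogocytic libraries.

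**Figure D5:**
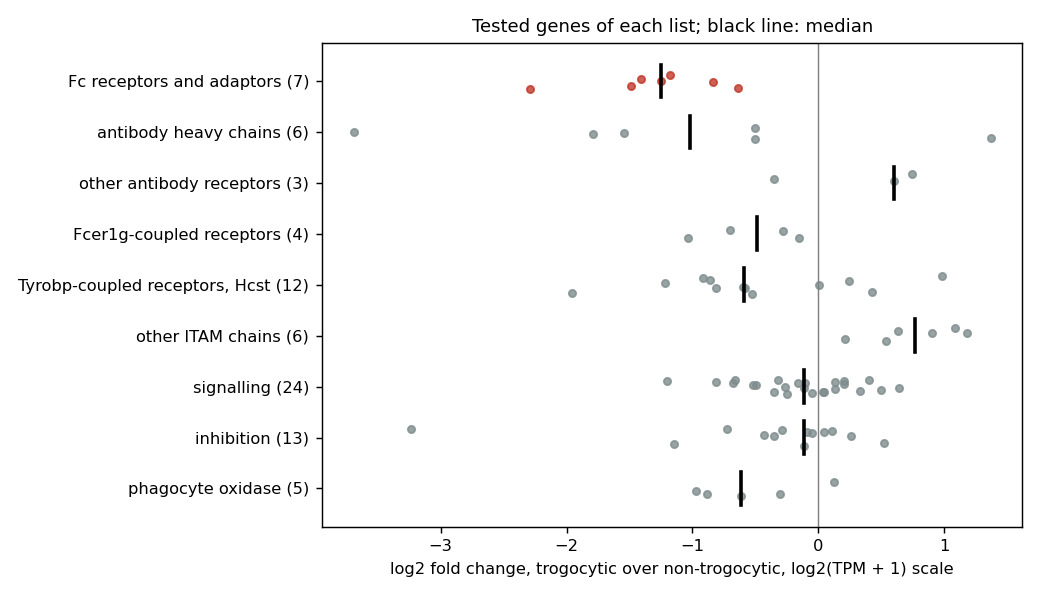
Log2 fold change, trogocytic over non-trogocytic, on the log2(TPM + 1) scale (horizontal axis) of the tested genes of each list (rows, number tested in brackets), with the list median as a black line and the Fc receptors and adaptors in red. Row labels name the lists as drawn up, and not every gene in the Fcer1g and Tyrobp rows is known to use that adaptor. The 7 Fc receptor and adaptor genes (median −1.25) lie below 0 and the 6 other ITAM chains (median 0.77) above it, and none of the points passed the test.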

How the data were processed

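Polyadenylated RNA of 8 co-cultures was sequenced as paired reads of 100 bp, per the labels' protocols. HISAT2, StringTie 1.3.3 and DESeq version 2, with the builds GRCm38 and mm10, are named per the submitters' processing notes. No source used here gives the annotation release or the strand setting. Per the file headers, the deposited tables give a coverage, an FPKM and a TPM per gene. The deposited TPM values sum to the same total in each library, the deposited FPKM values do not, and the deposited coverage signal is unscaled. Coverage over FPKM in genes with 1 transcript gave 1.39 to 1.84 Gb of aligned bases, or 6.93 to 9.21 M read pairs at full length, and 2.92 to 4.23 pairs per TPM and kb.

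Rows of one gene ID were summed. Of the 52636 IDs, 49121 had the same span in GENCODE M21. Genes with at least 1 TPM in at least 4 libraries were tested with limma 3.58.1 (R 4.3.3), two-sided, on log2(TPM + 1) and with the variance trend switched on. The procedure was tested on simulated data. It recovered 10% of simulated log2 changes of 1, 43.3% of those of 2 and 70.9% of those of 3. Of its calls, 4.18% were false. A gene that did not pass may therefore still differ between the groups. Named genes were all members, per list the 2 smallest p and the 2 highest means among tested genes, the 3 genes most correlated with each member and overlapping genes; a part is printed. Cd79b, Csf1r, Zap70, Inpp5d, Ighg1, Hcst, Csf3r and S100a8 and the genes not overlapping on the scaled levels were named after their values were seen. Members, lists and tests were chosen with earlier results of these data known. Alternatives are given in the closing section.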

Additional observations from a re-analysis of the deposited data

Results flagged for a closer look

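Of 17 gene and group combinations with any spread, 4 had a library that stood apart by Dixon's 95% critical value. The measure is its gap to the nearest other library as a share of the group's range. Chance flags about 1 in 20 such groups if values are normal, which was not checked. That rate does not hold for a group with several zeros. Non-trogocytic replicate 1 stood apart for Fcgr1, at 15.2 TPM, with a gap of 0.897 of the range. Without it the log2 fold change of Fcgr1 was −1.92. Trogocytic replicate 1 stood apart for Fcgr4, at 41.2 TPM, with a gap of 0.930 of the range, and without it the log2 fold change was −1.77 and the groups did not overlap. Trogocytic replicate 4 was the library with Fcer2a above 0, at 0.623 TPM, which rests on about 4.41 read pairs. Its gap of 1 range was fixed in advance, since the rest of the group was listed at 0. Trogocytic replicate 3 stood apart for Syk, at 2.17 TPM, with a gap of 0.835 of the range.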

How the results depend on the processing

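No Fc receptor or adaptor gene passed under any of the 21 alternatives of the limma fit. The fold changes of Fcgr1, tested in 20 of them, and of Fcgr2b, Fcgr3, Fcgr4, Tyrobp and Fcgrt kept their sign in each, and that of Fcer1g reversed in 1, to 0.02 (0.01655) relative to Cd68. Fold changes ranged from −3.87 to −1.06 for Fcgr1, both set by the pseudocount, from −1.84 to −0.76 for Fcgr4, from −1.61 to −0.53 for Fcgr3, from −2.34 to −0.46 for Fcgr2b, from −2.28 to −0.57 for Fcgrt and from −1.27 to −0.19 for Tyrobp. Levels relative to Ptprc moved the median of all genes to −0.42. The number of genes called among all genes was 6, and it was 3 with a pseudocount of 5 or with FPKM, 1 with no filter or without the trend, 0 relative to Ptprc or Cd68, 0 without replicate 1 of both groups and 0 to 3 with single libraries left out, where fewer samples are fitted; the other causes were not tested. Of the genes around the receptors, 1 was called, Ighg3, with a pseudocount of 0.1 (adjusted p = 0.0421) and with Ptprc as a covariate (adjusted p = 0.0293). The count of 1 gene lower without overlap, Fcgr1, was 0 with the higher filter of 5 TPM, which removes Fcgr1, 2 without replicate 1 of both groups, and 1 to 2 with single libraries left out. It was 2 without trogocytic replicate 1, with Fcgr4, and 2 without non-trogocytic replicate 4, with Tyrobp. Relative to Ptprc the count of 5 was 4 to 6, and relative to Cd68 the count of 2 was 1 with the higher filter and otherwise 2 to 3. The replicate numbers are shared between groups, and whether they pair the libraries is not known. Deviations of same-numbered libraries correlated at 0.24, 0.01, 0.06 and −0.09, and those of differently numbered ones at −0.21 to 0.17. So few values cannot decide the question. A replicate block left 0 genes called of 6, and the adjusted p of Fcgr1 in it was 0.8685. The block lowered the SE of Fcer1g from 0.46 to 0.29 and that of Fcgr4 from 0.46 to 0.33. It raised that of Fcgr1 from 0.54 to 0.57. Depth limits the low genes, Fcgr1, Syk and Fcer2a among them.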

Other observations

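Mast cells and basophils are the cells that carry the high-affinity IgE receptor. Of 9 genes of these cells, Mcpt4, Tpsb2, Il1rl1 and Hdc were listed at 0 in all 8 libraries and 2 were tested. The summed level of the 9 ranged from 0 to 35.9 TPM in trogocytic and from 1.301 to 52.2 TPM in non-trogocytic libraries, with replicate 1 the highest of each group. Prss34, a basophil protease, stood at 29.4 TPM in trogocytic replicate 1 and 31.0 TPM in non-trogocytic replicate 1, and Cpa3, a mast cell protease, at 6.42 and 16.6 TPM in the same libraries. Whether a 0 in these files, for these or any other genes, means a low level was not tested. Csf3r, a gene of neutrophils, was also listed at 0 in all 8 libraries. S100a8, of the same neutrophil list, stood at 126 to 330.2 TPM in trogocytic and 104 to 446 TPM in non-trogocytic libraries.

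Among other antibody receptors, Fcmr, which binds IgM, stood at 17.97, 10.9, 8.37 and 32.2 TPM in trogocytic libraries, against 5.92, 8.45, 15.7 and 11.2 TPM in non-trogocytic ones, with overlapping groups. Fcrla, an intracellular relative of the Fc receptors in B cells, stood at 54.8, 0.151, 0.321 and 10.97 TPM in trogocytic libraries, against 1.67, 5.35, 18.6 and 7.13 TPM in non-trogocytic ones. Of the 12 genes of this list, 3 were tested and 6 were listed at 0 throughout, among them Fcamr, Fcrlb, Fcrl5 and Fcrl6.

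Ighg1, of the IgG1 class, stood at 19.0 TPM in trogocytic replicate 1 and was listed at 0 in the other 7 libraries.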
